A study of Mus musculus with 6 samples.

Results

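The genes described are 10 components of gp130 cytokine signalling, taken by gene name from the 24421 genes of the deposited tables. They comprise the ligand gene *Lif*, the receptor genes *Il6st*, *Osmr*, *Lifr*, *Cntfr* and *Il6ra*, the kinase genes *Jak1* and *Jak2*, the transcription factor gene *Stat3* and the feedback inhibitor gene *Socs3*. All 10 were found, and all 10 passed the filter on low values that left 15137 genes for testing. RNA was sequenced from astrocytes isolated from the hippocampus of C57BL/6 mice, with 3 libraries in a PBS-treated group and 3 libraries in a DT-treated group. Each library came from a pool of 2 mice, and the pools were from independent experiments. Both groups had the genotype Siglech dtr/dtr, in which the receptor for diphtheria toxin (DT) is knocked into the *Siglech* locus, so that DT kills microglia. Hippocampi were taken 2 days after intraperitoneal PBS or 50 μg/kg DT. The study used adult males for such injections, and its methods give an age range for adult mice as a whole, not the age of these. As limits of the model, the allele lowers Siglec-H in homozygotes of both groups, and some macrophages of the choroid plexus also express Siglec-H. Toxin-treated mice without the allele are not among the libraries analysed here. Cells bearing CD11b were first depleted with magnetic beads and astrocytes were then collected with beads against ACSA-2.

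Cytokines of the interleukin-6 family share the signal-transducing receptor gp130, encoded by *Il6st*. Interleukin-6 and interleukin-11 act through gp130 homodimers, leukaemia inhibitory factor (LIF) and ciliary neurotrophic factor (CNTF) through gp130 paired with the LIF receptor, and oncostatin M in mouse mainly through gp130 paired with the oncostatin M receptor. The bound receptors activate JAK kinases, which phosphorylate STAT3, and STAT3 induces *Socs3*, whose product blocks gp130. In astrocytes this pathway is known for its part in reactive gliosis and in the induction of *Gfap*.

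Among the 10 genes, *Osmr* rose 3.06-fold and *Stat3* rose 1.97-fold in the DT-treated group. *Socs3* was 1.77-fold higher on average and lay at the edge of the test (adjusted p = 0.0512 from limma). The shared receptor *Il6st* and the kinases *Jak1* and *Jak2* did not pass the test, and the intervals of their differences included 0. *Cntfr*, the most abundant of the 10 by TPM, was lower on average in the DT-treated group without passing the test. Changes were computed on log2(CPM + 0.1), a scale that understates the change of genes with few reads, and tested two-sided with limma with Benjamini-Hochberg adjustment over all genes tested. Of all genes tested, 0.555% were higher and 0.159% lower after DT at an adjusted p under 0.05. Of the 10 genes, 2 were higher and 0 lower by that criterion. At an unadjusted p under 0.05, where 5.91% of all genes tested were higher and 4.51% lower, 4 of the 10 were higher and 1 was lower. On the recovered reads edgeR called 2 of them, against 0.733% of all genes tested, and DESeq2 called 4, against 2.15%. The same shares over all genes are the background of the counts given for the gene lists below. The median log2 fold change was 0.11 for the 10 genes and -0.01 for all genes tested.

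**Figure D1:**
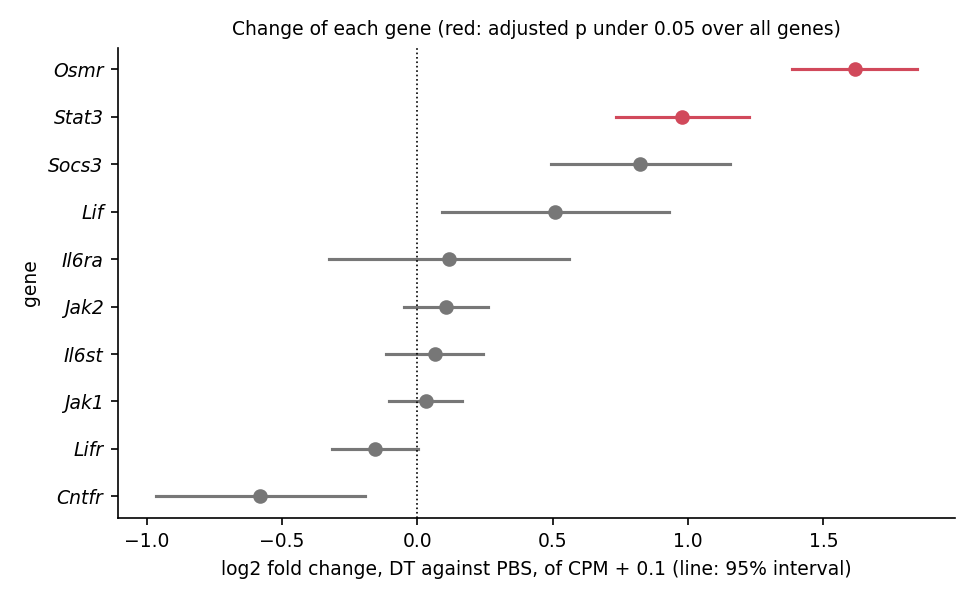
Log2 fold change of each of the 10 genes in the DT-treated group against the PBS-treated group on the scale of log2(CPM + 0.1), with its 95% interval from limma. *Osmr* at 1.62 and *Stat3* at 0.98 passed the threshold (red), and the interval of *Socs3*, from 0.49 to 1.15, lay above 0 without an adjusted p under 0.05.

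The libraries held 21704891 to 32933975 reads assigned to genes. Astrocyte markers summed to between 34437 and 35765 TPM after PBS and between 33746 and 35977 TPM after DT, with 0 of 13 past the threshold. Microglia markers summed to 239 to 309 TPM after PBS and 117 to 130 TPM after DT. Of these 12 genes 7 fell, and *Siglech* had 0 reads in each DT library. Markers of border-associated macrophages summed to 23.9 to 38.3 TPM after PBS and 71.6 to 92.5 TPM after DT, and 3 of 8 tested rose. Endothelial markers summed to 856 to 1242 TPM after PBS and 705 to 815 TPM after DT, and 1 of 9 passed the threshold as lower. Of these 9, 0 had a log2 fold change above 0 (median -0.42). Markers of choroid plexus varied most, with sums of 382, 2013 and 100.004 TPM in the PBS libraries and 3411, 2314 and 1244 TPM in the DT libraries, and each of the 5 had a log2 fold change above 0 (median 1.70). Ependymal markers summed to 451 to 549 TPM and 603 to 974 TPM. Of the choroid plexus markers 0 of 5 passed the threshold, and of the ependymal markers 0 of 4. Lists of pericyte and fibroblast markers (379 to 562 and 414 to 519 TPM), neuron markers (205 to 246 and 174 to 311 TPM) and oligodendrocyte lineage markers (436 to 537 and 329 to 391 TPM) also had 0 genes past the threshold. Of the 8 oligodendrocyte lineage markers, 1 had a log2 fold change above 0 (median -0.38). The part of these other cells in the values below was not tested. In such bulk RNA, fewer cells of a type and less RNA per cell cannot be told apart.

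By TPM, a scale that divides by transcript length and so allows genes to be compared, the 10 genes spanned a wide range. After PBS, *Cntfr* was highest at 306 ± 35.9 TPM (SD, n = 3), above *Il6st* at 135 ± 9.24 TPM and *Jak1* at 117 ± 2.89 TPM. *Stat3* and *Lifr* followed at 89.8 and 88.3 TPM, and their libraries overlapped. *Jak2* stood at 51.1 TPM, *Osmr* at 35.1 TPM and *Socs3* at 14.5 TPM. *Lif* and *Il6ra* were lowest at 5.84 and 5.46 TPM, again with overlapping libraries. The receptor subunits that transmit the signal were therefore read at levels well above the subunit that binds interleukin-6. After DT, *Stat3* at 179 TPM was second to *Cntfr* at 212 TPM, and the libraries of these 2 genes overlapped. *Osmr* moved from below to above *Lifr*, with 108 TPM against 79.9 TPM. The level of *Osmr* exceeded that of 63.5% of genes tested in the PBS libraries and 89.2% in the DT libraries, and the level of *Stat3* exceeded that of 86.4% and 94.3%.

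**Figure D2:**
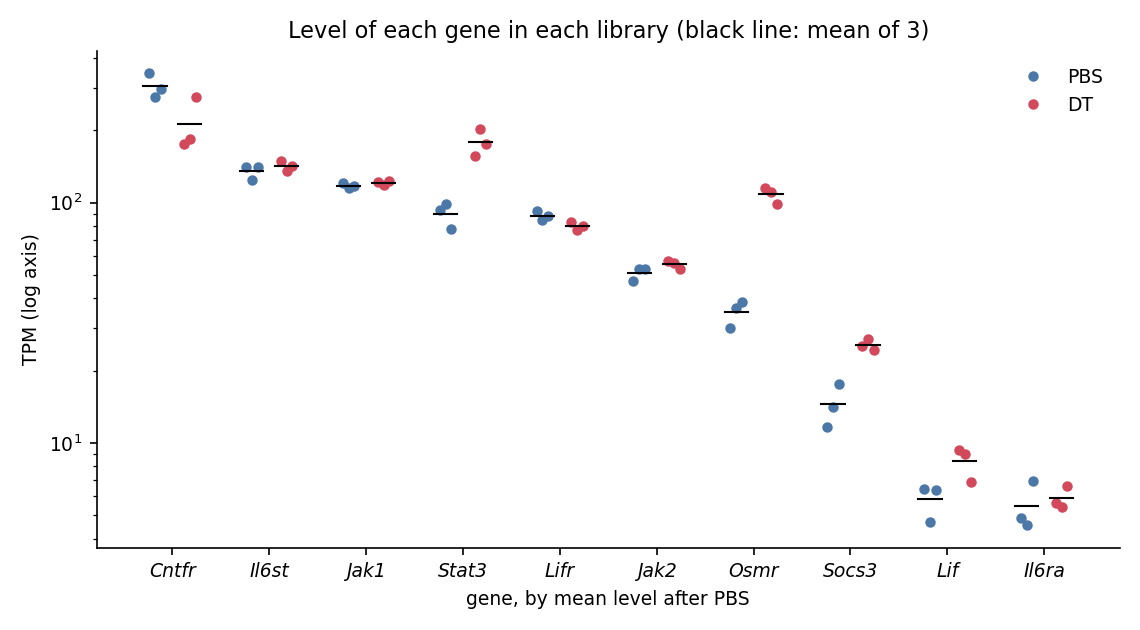
TPM of each of the 10 genes in each PBS library (blue) and DT library (red) on a log axis, ordered by the mean after PBS, with the mean of 3 libraries as a black line. The DT libraries of *Osmr*, *Stat3*, *Socs3* and *Lif* lie above the PBS libraries, and those of *Cntfr* are spread widely, with 1 library at 275 TPM.

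Of the genes tested, 8.75% had each DT library above each PBS library in CPM, and 7.57% had each DT library below. Among the 10 genes, *Lif*, *Osmr*, *Stat3* and *Socs3* had the DT libraries above, *Cntfr* had them below, and 5 overlapped. In TPM, where the shares over all genes tested were 9.50% above and 6.65% below, 5 of the 10 genes lay above and 1 below. *Jak2* joined the genes above, *Lifr* came to lie below, and *Cntfr* overlapped.

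Ligands of the family were scarce in these libraries. *Lif*, which encodes leukaemia inhibitory factor, at chromosome 11 of mm10, bases 4257557 to 4272514 (plus strand), had 194 to 378 reads in each library. Its levels after PBS were 9.25, 6.51 and 8.91 CPM, and after DT they were 13.4, 12.3 and 9.55 CPM. Each DT library lay above each PBS library, but the lowest DT library was close to the highest PBS library. The log2 fold change was 0.51 (95% interval 0.09 to 0.93), which did not pass the test (adjusted p = 0.393 from limma).

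Of 11 ligand and ligand-chaperone genes, 5 passed the filter on low values and 0 of them passed the test in either direction, with 2 higher and 0 lower at an unadjusted p under 0.05 and 0 called by edgeR and by DESeq2. Their median log2 fold change was 0.51. *Cntf*, the gene of ciliary neurotrophic factor, had 3.04 ± 0.24 and 4.50 ± 1.09 CPM in the 2 groups (SD, n = 3), a log2 difference that did not pass the test (0.53, adjusted p = 0.453 from limma). *Clcf1*, which encodes a cytokine that signals through the CNTF receptor, had 0.70 ± 0.13 and 1.20 ± 0.21 CPM (0.71, adjusted p = 0.499). *Ctf1*, the cardiotrophin 1 gene, had 1.38 and 1.19 CPM. *Il6*, *Il27* and *Ebi3* had 0 reads in each of the 6 libraries, where 0 reads allow up to 3 reads, or 0.0904 to 0.138 CPM depending on the library.

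The gene of oncostatin M itself, *Osm*, was read 7, 2 and 2 times in the PBS libraries and 5, 16 and 5 times in the DT libraries. These counts overlapped and lay under the filter, so that no fold change is given. *Il11* was read 2, 6 and 6 times after PBS and 4, 18 and 3 times after DT. *Ctf2* had 0 reads after PBS and 0, 7 and 4 reads after DT. For these 3 ligands a difference was not detectable at this depth.

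Among the receptors, *Osmr* changed and its partners did not pass the test. *Osmr*, at chromosome 15, bases 6813577 to 6874969 (minus strand), encodes the subunit that pairs with gp130 to bind oncostatin M. It had 50.6, 59.1 and 63.9 CPM in the PBS libraries and 192, 178 and 161 CPM in the DT libraries, from 1099 to 5490 reads. The lowest DT library was well above the highest PBS library. The group means were 57.9 ± 6.75 and 177 ± 15.9 CPM (SD, n = 3), a rise equal to 1.62 ± 0.10 (SE) on the log2 scale (limma, adjusted p = 0.000249). The spread between libraries was 11.7% of the mean after PBS and 8.95% after DT, while the reads counted would give 2.65% and 1.50% from counting error alone. The call held in 16 of 17 alternatives and was lost where every row of the table was tested (adjusted p = 0.0786), including those at 0 in each library. Leaving out 1 library at a time gave log2 fold changes between 1.52 and 1.69.

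*Il6st*, at chromosome 13, bases 112464070 to 112510086 (plus strand), had 266, 228 and 261 CPM after PBS and 281, 246 and 262 CPM after DT. The groups overlapped, and the log2 fold change was 0.06 (95% interval -0.12 to 0.24, adjusted p = 0.829 from limma). *Lifr*, at chromosome 15, bases 7090614 to 7197489 (plus strand), encodes the receptor that pairs with gp130 for LIF and CNTF. It had 256, 235 and 246 CPM after PBS and 239, 206 and 217 CPM after DT. The highest DT library was above the lowest PBS library, and the log2 fold change was -0.16 (95% interval -0.32 to 0.00, adjusted p = 0.485 from limma). With 4971 to 7806 reads per library, both genes were among the more precisely measured of the 10. Their intervals leave out changes of the size seen for *Osmr*.

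The composition of the receptors that pair with gp130 was then compared per length. *Osmr* made up 24.6%, 30.1% and 30.5% of the summed TPM of *Osmr* and *Lifr* in the PBS libraries, and 58.0%, 59.0% and 55.3% in the DT libraries. The groups were far apart in this share, with means of 28.4% ± 3.28 and 57.5% ± 1.91 (SD, n = 3) and a difference of 29.1 percentage points (exact permutation test, two-sided p = 0.1, the smallest that 3 against 3 libraries allow). The share follows from the rise of *Osmr* given above and is not evidence apart from it. Set against *Il6st*, the summed TPM of *Osmr* and *Lifr* was 0.872, 0.972 and 0.904 of the TPM of *Il6st* in the PBS libraries. In the DT libraries it was 1.33, 1.39 and 1.25 of that of *Il6st*. By TPM, which rests on the transcript lengths used, the partner receptors thus went from below to above gp130. In CPM, not divided by length, *Lifr* alone was above *Il6st* in PBS replicate 2 (235 against 228 CPM). This ratio was not recomputed under the alternatives. These are levels of RNA, and the number of receptors on the cells was not measured.

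**Figure D3:**
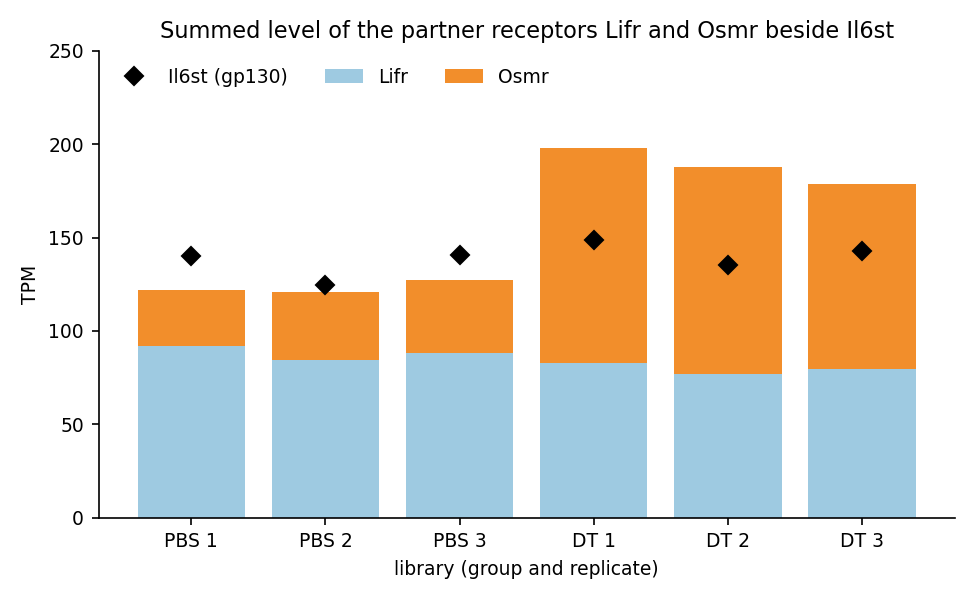
TPM of *Lifr* (blue) and *Osmr* (orange) stacked in each library, with the TPM of *Il6st* as a diamond. The stacked bar is below the diamond in the 3 PBS libraries and above it in the 3 DT libraries, and most of the difference is *Osmr*.

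*Cntfr*, at chromosome 4, bases 41657498 to 41697089 (minus strand), encodes the CNTF-binding subunit, which is held in the membrane by a lipid anchor. It had 237, 183 and 199 CPM in the PBS libraries and 117, 121 and 183 CPM in the DT libraries. In CPM, DT replicate 3 lay just under the lowest PBS library, and in TPM it overlapped it at 275.0 against 274.9 TPM. The log2 fold change was -0.58 (95% interval -0.97 to -0.20, adjusted p = 0.277 from limma). The spread of the DT libraries was 26.4% of their mean, against 1.71% from counting error. Without DT replicate 3 the log2 fold change was -0.79 and passed the test (adjusted p = 0.0257 from limma). DESeq2 on all libraries also called *Cntfr* (adjusted p = 0.0291). Only these 2 of 17 alternatives passed, and edgeR gave an adjusted p of 0.314. DT replicate 3 also had the highest sum of ependymal markers, at 974 TPM against 603 and 605 TPM in the other DT libraries, and the lowest sum of choroid plexus markers among them, at 1244 TPM against 3411 and 2314 TPM. The part of either in the value of *Cntfr* was not tested.

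*Il6ra*, at chromosome 3, bases 89864059 to 89913196 (minus strand), encodes the interleukin-6 binding subunit. It had 5.71, 5.13 and 7.95 CPM after PBS and 6.55, 6.04 and 7.50 CPM after DT. The groups overlapped on 124 to 186 reads per library, and the log2 fold change was 0.12 (95% interval -0.33 to 0.56, adjusted p = 0.879 from limma). The upper end of the interval was a 1.47-fold higher level. *Il6ra* overlaps the gene *Gm42809* on the opposite strand, and the mapping used strand information.

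Of the 9 receptor genes of the family listed, 7 were tested, 1 was higher and 0 were lower, and the median log2 fold change was -0.03. At an unadjusted p under 0.05, 1 was higher and 1 lower, edgeR called 1 and DESeq2 called 2. Beside the genes above, *Il11ra1*, the interleukin-11 receptor gene, had 69.9 ± 4.26 CPM in the PBS libraries and 68.6 ± 5.12 CPM in the DT libraries (SD, n = 3; log2 fold change -0.03, adjusted p = 0.936 from limma). Its near-identical copy *Il11ra2* had 81 to 178 reads per library, but is listed at 0 TPM, so that the division of reads between the copies is uncertain. *Il27ra* was read at most 13 times and *Il31ra* at most 4 times in a library. *Il6st* made up 19.7% ± 0.62 (SD, n = 3) of the summed TPM of the family's receptors after PBS and 21.5% ± 1.50 after DT, a difference of 1.82 percentage points (exact permutation test, two-sided p = 0.2, where the smallest possible is 0.1).

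*Jak1* and *Jak2* encode the kinases bound to the inner part of gp130 and its partners. *Jak1*, at chromosome 4, bases 101152367 to 101265282 (minus strand), had 222, 204 and 211 CPM after PBS and 224, 208 and 219 CPM after DT. Its log2 fold change of 0.03 had the narrowest interval of the 10 genes (-0.10 to 0.17, adjusted p = 0.899 from limma). *Jak2*, at chromosome 19, bases 29251828 to 29313080 (plus strand), had 82.4, 90.0 and 90.2 CPM after PBS and 98.8, 94.5 and 89.3 CPM after DT. The groups overlapped, and the log2 fold change was 0.11 (-0.05 to 0.26, adjusted p = 0.645 from limma).

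*Stat3*, at chromosome 11, bases 100885098 to 100939540 (minus strand), encodes the transcription factor that carries the signal to the nucleus. It had 145, 149 and 118 CPM in the PBS libraries and 243, 303 and 266 CPM in the DT libraries, from 2577 to 9325 reads. Each DT library was far above the highest PBS library. The group means were 137 ± 16.6 and 271 ± 30.2 CPM (SD, n = 3), a rise equal to 0.98 ± 0.11 (SE) on the log2 scale (limma, adjusted p = 0.00538). The call held in 15 of 17 alternatives. It was lost without the variance trend (adjusted p = 0.0776) and where every row of the table was tested (adjusted p = 0.192). The end of *Stat3* overlaps that of *Stat5a*, transcribed from the opposite strand, and for *Stat5a* the log2 fold change was 0.35 (adjusted p = 0.457 from limma).

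Of 11 genes of JAK kinases and STAT factors, 10 were tested, 1 was higher and 0 were lower, with 2 higher and 0 lower at an unadjusted p under 0.05 and 1 call each by edgeR and DESeq2. The median log2 fold change was 0.06. The log2 fold changes of the 9 tested genes other than *Stat3* lay between -0.16 and 0.38. The second STAT factor to pass an unadjusted p under 0.05 was *Stat5a*.

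*Socs3*, at chromosome 11, bases 117966079 to 117970047 (minus strand), encodes the inhibitor that binds gp130 and the JAK kinases. It had 11.1, 12.9 and 16.4 CPM in the PBS libraries and 23.9, 24.7 and 22.4 CPM in the DT libraries, from 241 to 759 reads. The DT libraries lay close together and above the highest PBS library. The group means were 13.5 ± 2.72 and 23.6 ± 1.16 CPM (SD, n = 3), and the log2 fold change was 0.82 (95% interval 0.49 to 1.15, adjusted p = 0.0512 from limma). The adjusted p lay between 7.33e-05 and 0.315 over 17 alternatives and was under 0.05 in 4 of them. Without PBS replicate 3, the PBS library with most *Socs3*, the log2 fold change was 0.98 (adjusted p = 0.0182 from limma).

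Of 16 inhibitors of JAK-STAT signalling, all tested, 0 were higher and 0 lower with limma, 1 was higher and 0 lower at an unadjusted p under 0.05, 0 were called by edgeR and 1 by DESeq2. The gene of the unadjusted call and of the DESeq2 call was *Socs3*. At 1 of 16, the share higher at an unadjusted p was close to the 5.91% of all genes tested. The median log2 fold change of the 16 was 0.04. *Socs1* and *Socs2*, close relatives of *Socs3*, had log2 fold changes of 0.34 and 0.35 (adjusted p = 0.709 and 0.642 from limma), and *Ptpn11*, which encodes the phosphatase SHP2 that binds gp130, had -0.05.

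The bases before the start of *Stat3* and *Socs3* are shown because both genes are known targets of STAT3, which binds the letters TTCNNNGAA. The sequences are from RefSeq on GRCm38.p6, 5′ to 3′ on the minus strand, in lower case with a match of TTCNNNGAA in capitals. For *Stat3* the 250 bases before the start are at chr11:100939541-100939790 and lie outside the GENCODE gene. For *Socs3* the stretch is the 165 bases farthest from the start among the 250 before it, at chr11:117969452-117969616, within an intron of a GENCODE non-coding transcript.
Stat3: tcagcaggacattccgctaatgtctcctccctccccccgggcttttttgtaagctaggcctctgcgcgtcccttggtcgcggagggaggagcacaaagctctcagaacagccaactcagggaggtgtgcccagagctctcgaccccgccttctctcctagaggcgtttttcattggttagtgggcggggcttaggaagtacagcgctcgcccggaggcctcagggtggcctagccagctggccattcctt
Socs3: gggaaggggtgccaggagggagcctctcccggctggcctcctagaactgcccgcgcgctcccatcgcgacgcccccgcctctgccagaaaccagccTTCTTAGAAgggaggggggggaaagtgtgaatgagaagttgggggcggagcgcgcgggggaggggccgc
The *Socs3* stretch holds TTCTTAGAA at positions -154 to -146 counted from the start, and the *Stat3* stretch holds no match. All 10 genes had at least 1 such window of 250 bases, and there were 16 windows in all. The window of *Osmr* lay wholly in an untranslated region by GENCODE, and those of *Lifr* and *Cntfr* lay inside the GENCODE genes. The counts that follow are by gene, while the shares are by promoter window. TTCNNNGAA, whose letters read the same on both strands, was found in 1 of the 10 genes and in 7.02% of 32851 RefSeq promoters. TGANTCA, the letters bound by AP-1 factors, also reads the same on both strands, overlaps none of these matches and was found in 1 of the 10 genes, as TGACTCA at positions -228 to -222 of *Lif*, and in 6.75% of promoters. These matches describe the letters only, and binding was not measured.

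Genes known to be induced through STAT3 were set beside the 10 genes, although *Stat3* and *Socs3* are on both lists. Of 25 listed, 24 were tested and 9 rose, among them *Stat3* itself, while 0 fell. *Timp1*, also among the 9, passed the filter on low values only through its DT libraries, so that it could only count as higher. Log2 fold changes were above 0 for 23 of the 24, and their median was 0.90, also with *Timp1* at its lower bound. The list was written with earlier results of these libraries known, so that its direction is not independent evidence. STAT3 activity was not measured, and whether STAT3 raised these genes was not tested. *Serpina3n*, the gene of a secreted protease inhibitor, rose by 3.45 on the log2 scale, *A2m*, that of alpha-2-macroglobulin, by 2.18, and *Gfap*, that of the astrocyte intermediate filament, by 1.93. *Cd44*, a hyaluronan receptor gene, had a log2 fold change of 1.75. The transcription regulator genes *Cebpd* and *Sbno2* had log2 fold changes of 1.64 and 1.52, and the adhesion molecule gene *Icam1* of 1.08. The call of *Cebpd* was lost without DT replicate 2 (adjusted p = 0.0575 from limma). That of *Icam1* was lost without PBS replicate 2 or any single DT library (adjusted p = 0.0604 to 0.0967). *Timp1*, the gene of a metalloproteinase inhibitor, had 0 reads in the PBS libraries and was at least 25.6-fold higher after DT against a floor of 3 reads per library.

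The other genes of the list did not pass the test. *Cebpb*, which encodes a relative of the *Cebpd* product, had 10.3, 1.48 and 1.19 CPM after PBS and at least 15.8 CPM in the DT libraries. The groups did not overlap, but PBS replicate 1 stood apart from the other PBS libraries (log2 fold change 2.73, adjusted p = 0.181 from limma). Without that library *Cebpb* passed the test at 3.68 (adjusted p = 0.000414 from limma), the only 1 of 17 alternatives in which it passed. On all libraries edgeR and DESeq2 did not call it (adjusted p = 0.323 and 0.376). For *Bcl3* the log2 fold change was 1.72 without passing the test (adjusted p = 0.140 from limma), and *Vim* had 0.65 (adjusted p = 0.0616). The immediate early genes *Fos* and *Junb* had 0.07 and 0.13, and *Hif1a* had -0.01. *Mcl1* and *Bcl2l1*, which encode survival proteins, had 0.17 and 0.07 (adjusted p = 0.323 and 0.833 from limma). At an unadjusted p under 0.05, 17 of the 24 were higher and 0 lower, while edgeR called 9 and DESeq2 called 12. *Timp1* is in each of these counts, and *Socs3* in the 17 and the 12.

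**Figure D4:**
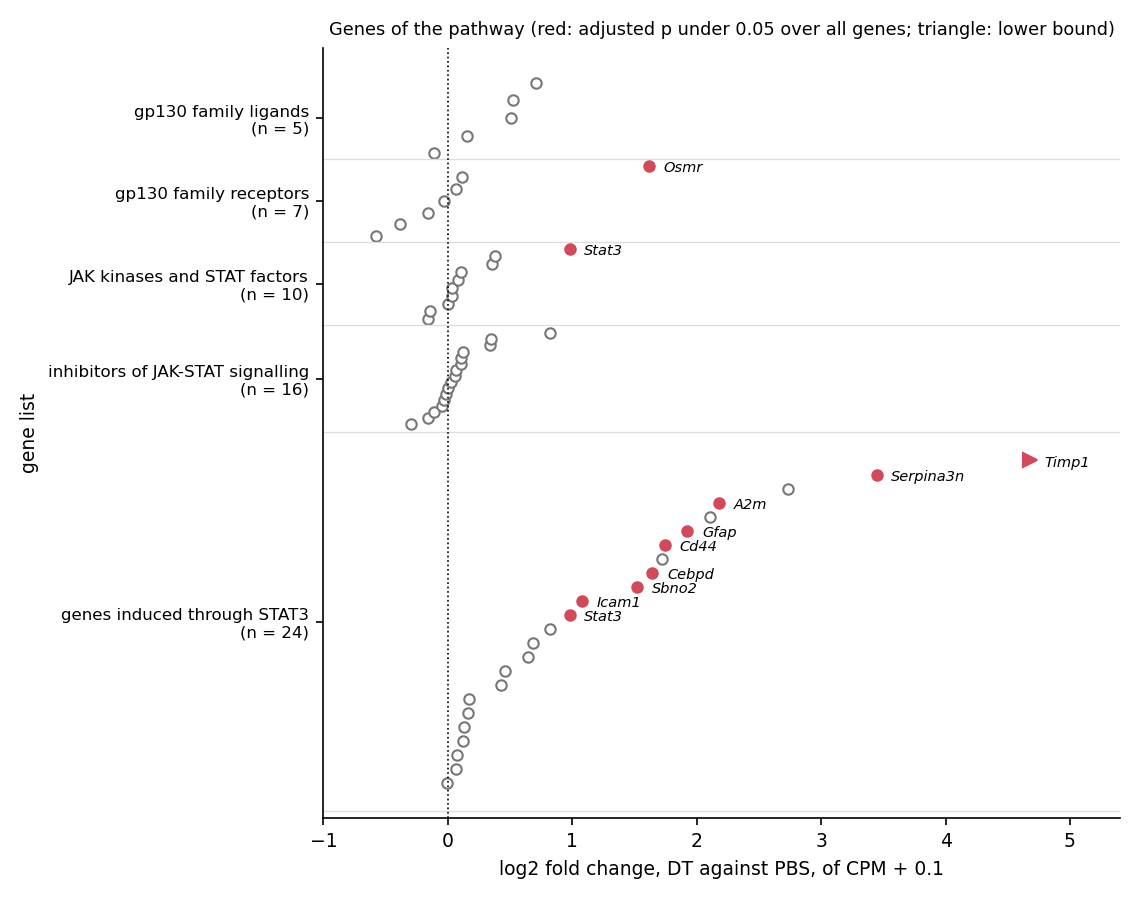
Log2 fold change (DT against PBS, scale of log2(CPM + 0.1)) of each tested gene in 5 lists of the pathway, with genes of an adjusted p under 0.05 in red and *Timp1* drawn at its lower bound. Receptors, kinases and inhibitors lie between -0.58 (*Cntfr*) and 0.82 (*Socs3*) apart from *Osmr* and *Stat3*, while 9 of 24 genes known to be induced through STAT3 are red.

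Profiles most like those of the 2 genes past the threshold were sought by distance of log2(CPM + 0.1) over the 6 libraries, each centred on its PBS mean, among 7713 genes with a mean of at least 20 CPM. For *Osmr* these were *Cd44* (distance 0.344), *Sbno2* (0.361) and the complement gene *C4b* (0.369), whose paralog may share reads. For *Stat3* they were *Dbndd2* (0.294), *Wfs1* (0.335) and *Plce1* (0.400). *Cd44* had 15.0 ± 2.85 and 49.8 ± 2.09 CPM (SD, n = 3) after PBS and DT, a log2 fold change of 1.75 beside the 1.62 of *Osmr*. *Dbndd2* had 38.5 ± 2.56 and 75.3 ± 5.12 CPM.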

How the data were processed

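The authors trimmed reads with Trim Galore 0.5.0, mapped them to mm10 with HISAT2 2.1.0, removed ribosomal reads with BEDTools 2.25.0, quantified genes with StringTie 1.3.5 and compared groups with edgeR 3.24.3 in R 3.5.1. They deposited CPM and TPM per gene and library. The deposited signal is CPM on library sizes scaled by TMM factors (0.974 to 1.02), although plain CPM had been assumed in the design. The deposited TPM were used as they stand. Columns with the authors' own comparison (log fold changes, p-values and q-values) were left aside. Whole reads, within 0.05 reads, were recovered from 100% of CPM values, and edgeR 4.0.16 (quasi-likelihood test) on them called 111 genes.

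Here, log2(CPM + 0.1) of genes with a mean of at least 0.5 CPM was compared over the 3 PBS and 3 DT libraries by limma 3.58.1 (R 4.3.3) using a variance trend, a fit tested on simulated data. The genes described, the 5 pathway lists and the 9 marker lists were chosen with earlier results of these data known, and p-values are adjusted over all genes tested, never over a list. Named are the 10 genes, the ligands and receptors (some items are not reported here), list genes past the threshold, and for each of the 10 past it the 3 nearest profiles. *Stat5a*, *Socs1*, *Socs2*, *Ptpn11*, *Cebpb*, *Bcl3*, *Vim*, *Fos*, *Junb*, *Hif1a*, *Mcl1* and *Bcl2l1* were named after their values were seen. Coordinates are those of GENCODE M21. Alternatives were pseudocounts of 0.5 and 1, other filters, TPM, quantile normalization, no variance trend, a replicate block, each library left out, and edgeR and DESeq2 1.42.0 on the recovered reads. Depth was 21704891 to 32933975 reads per library, and intervals of zero counts cover counting error only.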

Additional observations from a re-analysis of the deposited data

How the results depend on the processing

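Of 473 values recomputed under the alternatives, 433 were counted as the same. These kept their call or, where no test applies, moved by no more than the spread between libraries or, for counts, a set margin. That margin was wide, as 57 genes higher against 84, and 6 genes induced through STAT3 against 9, still counted as the same. The median of receptors, which has no test, was -0.03 and turned above 0 with every row or every gene with a read tested (0.06) and without PBS replicate 1 (0.00770) or DT replicate 2 (0.0143). With every row of the table tested, also those at 0 in each library, 5 genes were higher and 1 lower, *Osmr* (1.62) and *Stat3* (0.98) lost their calls, so that 0 receptors and 0 kinases or STAT factors were higher, and 2 genes induced through STAT3 were. With every gene that had a read, an alternative chosen after seeing the data, 69 were higher and 19 lower. Without the variance trend, 35 were higher and 11 lower, and *Stat3* (0.98) lost its call, leaving 0 kinases or STAT factors. DESeq2 called 227 higher and 98 lower, among them *Socs3* (0.81) and *Cntfr* (-0.56), so that 1 inhibitor was higher and 1 receptor lower. With pseudocounts of 0.5 and 1, *Socs3* passed (0.80 and 0.78), as 1 inhibitor. In CPM, the difference in the *Osmr* share was 25.4 points and that in the *Il6st* share 0.0104 points. The median of inhibitors was 0.00429 with quantile normalization, and that of genes induced through STAT3 was 0.69 at a mean of at least 2 CPM. No scaling moved the median of all genes by more than 0.1.

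Leaving out 1 library at a time gave 39 to 72 genes higher and 9 to 20 lower, with fewest higher without DT replicate 1 and fewest lower without PBS replicate 2. The *Osmr* share differed by 27.2 to 30.1 points and the *Il6st* share by 1.13 to 2.61 points. Ligands had a median of 0.34 to 0.57, and inhibitors one of -0.00710 to 0.0914 with 0 to 1 higher. Receptors had 0 to 1 lower. *Cntfr* ranged from -0.79 to -0.46, *Socs3* from 0.69 to 0.98, *Il6st* from -0.00675 to 0.11 and *Il6ra* from -0.0139 to 0.30, the last 2 turning below 0 without PBS replicate 2. The causes were not tested.

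With the replicate number as a block, 79 genes were higher and 30 lower, and no call among the 10 genes changed (*Osmr* adjusted p = 0.00311, *Stat3* 0.00651, *Socs3* 0.0682). Deviations of libraries with the same number correlated at 0.115, 0.0105 and 0.118, and those with different numbers at -0.124 to 0.0115. Replicates 1 and 3 correlated best with their own number. PBS replicate 2 was level with DT replicates 1 and 2 (0.0107 and 0.0105). Whether the numbers pair the libraries was therefore not settled, and the main fit had no block.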
